A study of Rattus norvegicus with 12 samples.

Results

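The genes described here encode the subunits of the mitochondrial respiratory chain and ATP synthase, measured in the cells of rat bronchoalveolar lavage fluid (BALF), the wash of the air spaces that holds mainly alveolar macrophages. Members were chosen by symbol, as genes that begin with Nduf (complex I), Uqcr (complex III), Cox4 to Cox8 (complex IV) or Atp5 (complex V, the ATP synthase), together with Sdha, Sdhb, Sdhc and Sdhd (complex II). Each gene was represented by the probe set of its own with the highest mean signal. Of 86 such genes, 84 passed a filter on low signal, out of 12853 genes tested in all. They comprised 42 genes of complex I, 4 of complex II, 7 of complex III, 15 of complex IV and 16 of complex V. Among them were 6 assembly factors of complex I (the Ndufaf genes), the pseudogene Cox6c-ps1 and Atp5if1, the inhibitor protein of the ATP synthase. Cox6b2 and Cox7b2 stayed below the filter in every array. Probe sets that named several genes at once, among them those of Cox7a2, Uqcrb, Ndufs5 and Atp5mc2, were not used.

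Male Sprague-Dawley rats of 8 weeks were studied in 4 groups, all kept without food and water during the experiment. CTL rats received saline through the tail vein and stayed in normoxia. LPS rats received lipopolysaccharide, a component of the bacterial outer membrane that TLR4 recognises, at 0.5 mg/kg by the same route. HPO rats were held for 6 h in a hypobaric chamber at 405.35 mmHg, equal to an altitude of 5000 m and 11.2% oxygen. COMB rats received the same dose of LPS and then the same time in the chamber. Each group held 3 arrays, and each array was hybridised with RNA pooled from several rats. The sample titles list 3 rats for 10 pools and 2 rats for COMB pools 1 and 2. Differences between pools therefore give the spread between pools of animals, not between single animals.

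The chain passes electrons from NADH through complex I, or from succinate through complex II, to ubiquinone, complex III, cytochrome c and complex IV, which reduces oxygen to water. The proton gradient built by complexes I, III and IV drives ATP synthesis by complex V. Complex II is also an enzyme of the tricarboxylic acid cycle, and all of its subunits are encoded in the nucleus. The other complexes contain subunits encoded in mitochondrial DNA as well, which carry other symbols and are not members here. In macrophages, activation by LPS is known for a shift from oxidative metabolism towards glycolysis and for the build-up of succinate, the substrate of complex II. Alveolar macrophages at rest are known for their reliance on fatty acid oxidation and the respiratory chain.

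The arrays were alike in overall signal, with medians of 32.7 to 35.6 intensity units and 20th percentiles of 10.1 to 11.3. Markers of alveolar macrophages summed to 23870 to 26362 units in CTL and 22143 to 25424 in COMB. Of the 9 measured, 1 was called higher and 2 lower in COMB than in CTL (33.3%, against 22% of all genes). Markers of airway epithelium rose in COMB, with 15 of the 16 measured called higher than in CTL and sums of 26917 to 35119 against 8031 to 11818. Their sums were 18140 to 20322 in LPS and 18728 to 20514 in HPO, so every treated pool was above every CTL pool. Markers of recruited monocytes summed to 3310 to 6145 in COMB, 1738 to 2222 in LPS, 710 to 1086 in HPO and 448 to 2453 in CTL. Sums of T and NK cell markers were 1322, 8301 and 6793 in COMB pools 1, 2 and 3, and 610, 3296 and 1163 in the CTL pools in the same order. Of 7 neutrophil markers measured, 3 were called higher and 1 lower in COMB than in CTL (57.1%, against 22% of all genes). Their sums were 2917 to 6800 in COMB, and 509, 2988 and 474 in CTL pools 1, 2 and 3. CTL pool 2 (rats 5, 6 and 7) thus had the highest CTL sums of neutrophil, T and NK cell markers. The same held for recruited monocyte markers (448, 2453 and 906 in CTL pools 1, 2 and 3) and erythroid markers (2511, 11960 and 5717). Erythroid sums were 6283 to 11347 in LPS, 7864 to 11716 in HPO and 9725 to 12728 in COMB. B cell markers went otherwise, with 57, 68 and 226 in CTL pools 1, 2 and 3. Alveolar epithelium markers summed to 3719 to 4960 in COMB and 1871 to 2798 in CTL. They summed to 2175 to 2972 in LPS and 2392 to 2692 in HPO. Of the 12 measured, 7 (58.3%) were called higher in COMB than in CTL, where 22% of all genes were called. In pooled cells of mixed type, fewer cells of a type and less RNA per cell cannot be told apart, and the part of cell composition in the results below was not tested.

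The question was whether LPS and hypoxia change the transcripts of the oxidative machinery in BALF cells. COMB against CTL, given first, holds the effect of both exposures. What hypoxia added to LPS is asked further below by COMB against LPS, where Cox8a was the only member called. In COMB against CTL, 1 of the 84 genes rose and 3 fell, which is 4.76% of them, at a Benjamini-Hochberg adjusted p below 0.05 in limma over 25692 probe sets. In the same comparison 19.1% of all probe sets tested, and 22% of genes counted with 1 probe set each, passed that threshold. Sdhd, the membrane anchor subunit D of complex II, fell by 27.8% on the log2(intensity + 1) scale. Ndufs1, the iron-sulfur subunit that carries electrons through the arm of complex I outside the membrane, fell by 25.3%. Ndufb5, an accessory subunit in the membrane arm of complex I, fell by 17.4%. Cox7a1, the heart and muscle isoform of a small complex IV subunit, rose by 32.7% at a low signal. No member differed by as much as 2-fold in any comparison, whereas 5.40% of all probe sets did so in COMB against CTL.

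Sdhd read 2434, 2080 and 2214 units in the CTL pools, 1919, 1747 and 1899 in the LPS pools, 2041, 2137 and 2221 in the HPO pools and 1595, 1692 and 1563 in the COMB pools. The COMB pools were below every pool of the other 3 groups, and the LPS pools were below every CTL and HPO pool. The log2 difference of COMB from CTL was -0.47 with a 95% interval of -0.67 to -0.27 (limma, adjusted p = 0.00344). COMB was also lower than HPO by a log2 difference of -0.40 (limma, adjusted p = 0.0109). The log2 difference of LPS from CTL was -0.27 (limma, adjusted p = 0.161), and that of COMB from LPS was -0.20 (limma, adjusted p = 0.173). Both calls for Sdhd held with each of the 12 arrays left out in turn, with log2 differences from CTL of -0.52 to -0.41.

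A further probe set for Sdhd gave a less clear order. It read 1359, 982 and 1033 units in CTL, 914, 788 and 926 in LPS, 1114, 1078 and 1214 in HPO and 809, 960 and 990 in COMB. COMB and CTL overlapped on it, through CTL pool 2 and COMB pool 3, and COMB did not read lower than LPS. Its log2 difference of COMB from CTL was -0.28 (limma, adjusted p = 0.170), and that of LPS from CTL was -0.35 (limma, adjusted p = 0.234). The probe sets of Sdhd thus shared a lower mean in COMB and LPS than in CTL but not the size of the difference, nor the order of COMB and LPS.

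Sdha is the flavoprotein of complex II, which oxidises succinate. It read 701, 653 and 661 units in CTL, 606, 616 and 558 in LPS, 648, 639 and 769 in HPO and 619, 527 and 486 in COMB. All COMB and LPS pools were below all CTL pools, yet the log2 difference of COMB from CTL, -0.31 with an interval of -0.55 to -0.07, did not pass the threshold (limma, adjusted p = 0.0716). Its adjusted p was 0.0329 after quantile normalization and 0.0193 with each array centred on its median. It was called in 5 of 11 alternatives that kept all arrays. With an array left out it was called in 2 of 12 fits (limma, adjusted p of up to 0.219). Other members not called as reported, such as Ndufs3, Cox8b and Ndufa4, also passed under some alternatives.

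Sdhb, the iron-sulfur subunit of complex II, read 2014, 1526 and 1743 units in CTL, 1891, 1750 and 1776 in LPS, 1603, 1619 and 1811 in HPO and 1562, 1628 and 1601 in COMB. Sdhc, the other membrane anchor, read 1712, 1322 and 1467 in CTL, 1396, 1305 and 1408 in LPS, 1493, 1491 and 1673 in HPO and 1270, 1389 and 1560 in COMB. For both genes the COMB pools lay within the range of the CTL pools or overlapped it, and the log2 differences from CTL were -0.13 (limma, adjusted p = 0.435) and -0.09 (limma, adjusted p = 0.639). All 4 genes of complex II had a log2 difference below 0 in COMB, with a median of -0.22 against -0.04 for all probe sets tested. Averaged over the 4 genes, the COMB pools were -0.25, -0.24 and -0.26 log2 units from the CTL mean, lower than each of the other 9 pools, which lay between -0.17 and 0.15.

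**Figure D1:**
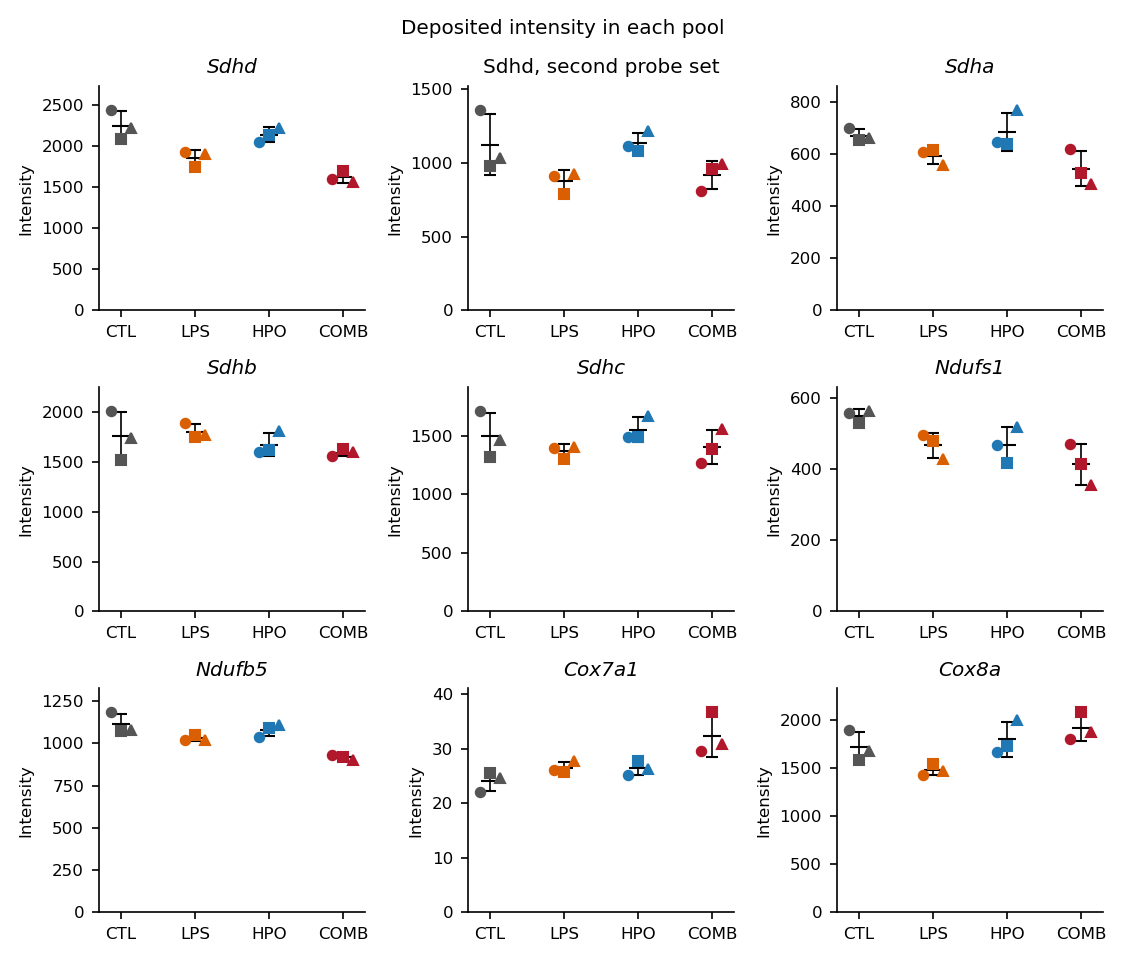
Deposited intensity (linear units, axis from 0) of Sdhd by each of its probe sets, of the other complex II genes, and of Ndufs1, Ndufb5, Cox7a1 and Cox8a in each pool of CTL, LPS, HPO and COMB. Circles, squares and triangles are pools 1, 2 and 3 of a group, and the bars give the mean and SD of 3 pools. The COMB pools of Sdhd (1563 to 1692) and Ndufb5 (903 to 932) lie below every other pool.

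Ndufs1 read 558, 530 and 563 units in CTL, 495, 479 and 428 in LPS, 467, 417 and 519 in HPO and 470, 415 and 356 in COMB. Every treated pool was below every CTL pool, and the treated groups overlapped one another. The log2 difference from CTL was -0.42 in COMB (interval -0.68 to -0.16, limma, adjusted p = 0.0272), -0.24 in LPS (limma, adjusted p = 0.392) and -0.24 in HPO (limma, adjusted p = 0.564). Without CTL pool 1, CTL pool 3, COMB pool 2 or COMB pool 3, the COMB call was lost, with adjusted p of up to 0.102.

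Ndufb5 read 1184, 1072 and 1080 units in CTL, 1017, 1051 and 1020 in LPS, 1035, 1090 and 1109 in HPO and 932, 918 and 903 in COMB. The COMB pools differed little among themselves and were the lowest of the 12. The log2 difference of COMB from CTL was -0.28 (interval -0.45 to -0.10, limma, adjusted p = 0.0302). The call was kept in 7 of the 12 fits that left out an array, and was lost without CTL pool 1, CTL pool 3 or any COMB pool, with log2 differences of -0.30 to -0.23.

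The other genes of complex I were not called in COMB against CTL. Complex I has 7 core subunits encoded in the nucleus, which carry the cofactors and the quinone site, and 6 of them were measured. Apart from Ndufs1 none was called, and 5 of the 6 had a log2 difference below 0, with a median of -0.06. The exception in sign was Ndufs3, named after its values were seen, which read 494, 461 and 441 units in COMB against 412, 332 and 368 in CTL, with no overlap. Its log2 difference of 0.33 was the highest in complex I (limma, adjusted p = 0.0934). Over all 42 genes 28 lay below 0, with a median of -0.04, equal to that of all probe sets. The 6 Ndufaf assembly factors ranged from -0.36 to 0.19 with none called.

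**Figure D2:**
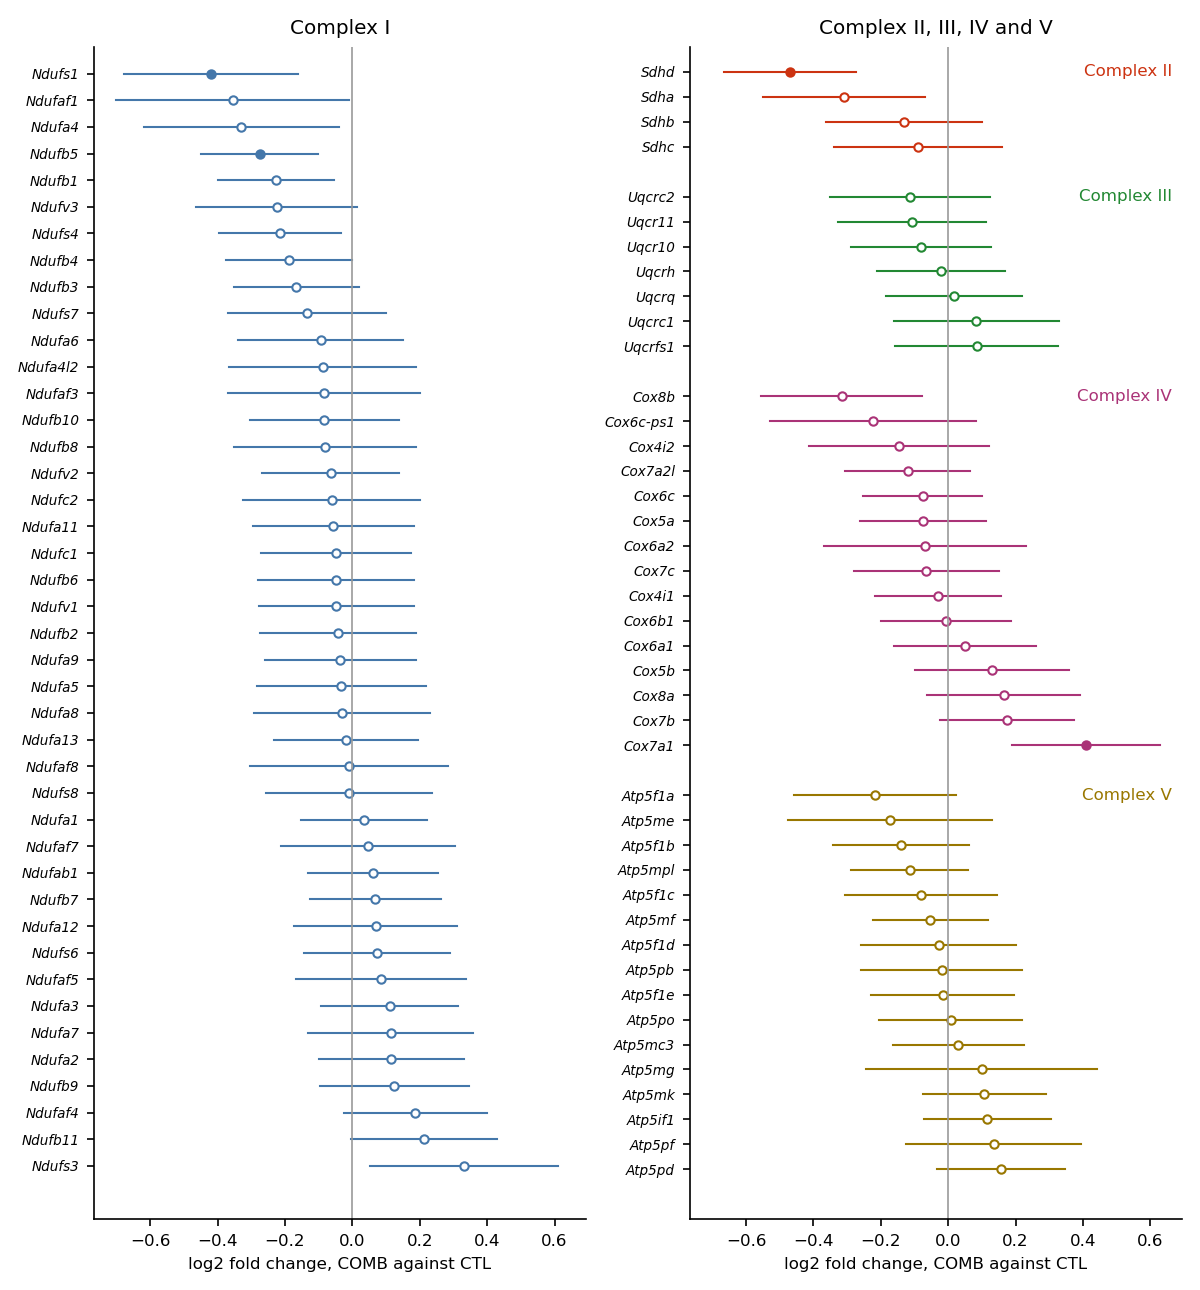
Log2 fold change of COMB against CTL for the 84 genes (horizontal axis), by complex, with 95% intervals from limma over 3 pools a group. Filled points passed an adjusted p of 0.05, namely Ndufs1, Ndufb5, Sdhd and Cox7a1, and the values ran from -0.47 to 0.41.

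Cox7a1 read 22.1, 25.5 and 24.6 units in CTL, 26.2, 25.7 and 27.7 in LPS, 25.3, 27.8 and 26.4 in HPO and 29.6, 36.7 and 30.8 in COMB. The COMB pools were the highest of the 12, while the other groups lay close together. The log2 difference of COMB from CTL was 0.41 (interval 0.19 to 0.63, limma, adjusted p = 0.0140), and it was lost without CTL pool 1 or COMB pool 2 (adjusted p of up to 0.0646). Apart from COMB pool 2, these readings were below the median signal of the arrays.

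The other isoforms of restricted tissue or inducible expression had readings nearer the 20th percentile of the arrays, and none was called in any comparison. Ndufa4l2 and Cox4i2 are known as targets of hypoxia-inducible factors in other cells. Ndufa4l2 read 17.6, 16.5 and 15.2 units in CTL, 16.1, 17.7 and 18.8 in LPS, 18.8, 14.98 and 13.5 in HPO and 13.4, 16.5 and 16.4 in COMB, with all groups overlapping. Cox4i2 read 15.7, 13.4 and 14.7 in CTL, 14.1, 15.2 and 12.1 in LPS, 11.1, 12.8 and 11.8 in HPO and 11.2, 13.0 and 15.3 in COMB. The HPO pools of Cox4i2 were below the CTL pools, at a log2 difference of -0.27 (limma, adjusted p = 0.498). Cox6a2, a muscle isoform, read 19.0, 17.6 and 21.0 units in CTL, 16.2, 19.1 and 21.3 in LPS, 18.3, 22.8 and 16.4 in HPO and 16.5, 18.0 and 20.2 in COMB. No pair of groups of Cox6a2 was apart.

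Cox8b, another muscle isoform, read 19.8, 25.4 and 24.0 units in CTL, 19.8, 21.4 and 21.3 in LPS, 21.8, 20.7 and 19.8 in HPO and 18.7, 20.0 and 16.2 in COMB. The COMB and CTL pools overlapped, and the log2 difference was -0.32 (limma, adjusted p = 0.0640).

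The common counterparts of these isoforms were at high signal and were not called in COMB against CTL. Cox4i1 read 3446, 3190 and 3318 units in CTL, 2980, 3116 and 2914 in LPS, 3382, 3400 and 3487 in HPO and 2972, 3329 and 3465 in COMB. The LPS pools were below all CTL and HPO pools, and the COMB pools spanned the range of CTL. Its log2 difference of COMB from CTL was -0.03, with an interval of -0.22 to 0.16.

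Cox6a1 read 2274, 1813 and 1959 in CTL, 1848, 1805 and 1808 in LPS, 2098, 2000 and 2108 in HPO and 1946, 2117 and 2173 in COMB, and its COMB and CTL pools overlapped at a log2 difference of 0.05. Cox6b1 read 2727, 2480 and 2504 in CTL, 2232, 2362 and 2367 in LPS, 2680, 2574 and 2809 in HPO and 2386, 2533 and 2761 in COMB. Its LPS pools were below all other pools, and the COMB and CTL pools overlapped at a log2 difference of -0.01. Ndufa4, long listed with complex I and now known as a subunit of complex IV, read 2445, 2015 and 2164 in CTL, 2181, 2006 and 2093 in LPS, 2116, 2015 and 2497 in HPO and 2138, 1572 and 1600 in COMB. COMB pool 1 of Ndufa4 lay within the CTL range and the other COMB pools below it, at a log2 difference of -0.33 (limma, adjusted p = 0.108).

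The promoters of the called members are shown because respiratory chain genes are known to share a small set of regulatory motifs. The sequences are from RefSeq on the build GRCr8, run from 250 bases before the annotated start to 50 bases after it, and were found for 76 of the 84 members. Capitals mark matches to the ETS core CCGGAAG, the site of the GABP (NRF2) family, or to the hypoxia response core ACGTG or GCGTG, on either strand. Neither the NRF1 core GCGCANGC nor the YY1 motif AAGATGGC was found in these 4 promoters.
Sdhd, minus strand, chr8:59850592-59850891: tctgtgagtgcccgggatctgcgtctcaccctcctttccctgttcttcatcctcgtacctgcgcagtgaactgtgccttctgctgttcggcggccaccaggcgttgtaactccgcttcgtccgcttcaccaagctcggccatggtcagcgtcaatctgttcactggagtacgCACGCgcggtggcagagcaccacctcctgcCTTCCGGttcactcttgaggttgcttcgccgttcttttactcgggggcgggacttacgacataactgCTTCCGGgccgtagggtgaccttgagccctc
Ndufs1, minus strand, chr9:72073556-72073855: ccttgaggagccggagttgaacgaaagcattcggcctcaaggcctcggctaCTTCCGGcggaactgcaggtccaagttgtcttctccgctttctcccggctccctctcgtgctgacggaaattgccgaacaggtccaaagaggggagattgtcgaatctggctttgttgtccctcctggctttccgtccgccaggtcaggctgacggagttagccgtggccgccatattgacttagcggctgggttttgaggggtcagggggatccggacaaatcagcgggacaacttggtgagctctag
Ndufb5, plus strand, chr2:117447355-117447654: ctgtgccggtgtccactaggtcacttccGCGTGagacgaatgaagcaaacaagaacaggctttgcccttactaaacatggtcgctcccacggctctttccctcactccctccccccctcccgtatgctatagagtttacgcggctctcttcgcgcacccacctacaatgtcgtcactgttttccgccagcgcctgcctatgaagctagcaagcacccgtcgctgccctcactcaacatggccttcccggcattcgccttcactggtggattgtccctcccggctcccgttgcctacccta
Cox7a1, plus strand, chr1:94568966-94569265: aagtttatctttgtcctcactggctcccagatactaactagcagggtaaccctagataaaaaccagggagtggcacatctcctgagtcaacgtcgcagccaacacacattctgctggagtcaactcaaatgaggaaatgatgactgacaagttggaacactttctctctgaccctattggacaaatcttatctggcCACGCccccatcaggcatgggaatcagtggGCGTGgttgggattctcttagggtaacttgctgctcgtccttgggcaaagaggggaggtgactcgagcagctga

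The promoter of Sdhd held the ETS core on the minus strand at bases -48 to -42 and again at 20 to 26, counted from the start, and that of Ndufs1 held it at -199 to -193. The promoters of Ndufb5 and Cox7a1 held no ETS core. Over the 76 promoters of members, 28.9% held the NRF1 core, 28.9% the ETS core, 22.4% the YY1 motif and 63.2% the hypoxia response core. Of all 33469 promoters of the same length, 8.98%, 8.75%, 3.17% and 41.6% did so in the same order. The median GC content was 56% for members and 51.7% for all promoters, and its part in these shares was not tested. Matches of different motifs overlapped in 6 of the 76 promoters.

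In LPS against CTL no member was called by limma, against 2.04% of probe sets, and 6 (7.14%) had an unadjusted p below 0.05, against 14.8% of probe sets. The Student t-test of the methods called 0 members after adjustment, and 12 of the 84 before it, where it called 20.9% of all genes. The differences were small but mostly of the same sign. Of the 84 genes, 74 (88.1%) lay below 0 in LPS, compared with 51.1% of all probe sets and 54.4% of genes counted with 1 probe set each. The median was -0.10 against -0.0045 for all probe sets and -0.02 for genes counted once. With the filter at the 50th percentile, which keeps brighter genes, the median was -0.11 for members and -0.05 for all genes. All 16 genes of complex V and all 7 of complex III lay below 0. The largest difference was that of Uqcrc2, a core protein of complex III named after its values were seen, which read 670, 584 and 671 units in LPS against 922, 807 and 815 in CTL, with no overlap. Its log2 difference was -0.40 (limma, adjusted p = 0.0890).

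The 3 LPS pools were all below the 3 CTL pools for 21 of the 84 genes, or 25%. This was so for 15.2% of probe sets and for 2408 of the 12853 genes counted once. The number below 0 was 66 after quantile normalization and 71 with each array centred on its median. It fell to 60, and the median to -0.04, without CTL pool 1 (rats 1, 3 and 4). Over all members the CTL pools themselves were 0.11, -0.10 and -0.01 log2 units from their mean, and the LPS pools were -0.09, -0.07 and -0.11, so the LPS pools lay near the lowest CTL pool, with LPS pool 3 slightly below it. CTL pool 2, the lowest of its group here, was the CTL pool with the highest neutrophil, T and NK cell, recruited monocyte and erythroid markers. It was not the highest in macrophage, B cell or epithelial markers. Among the COMB pools, pool 1 was the lowest both in the members (-0.07) and in T and NK cell markers (1322). COMB pool 3 was the highest in the members (-0.007) and the lowest in neutrophil markers (2917). Whether cell content bears on these levels was not tested.

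**Figure D3:**
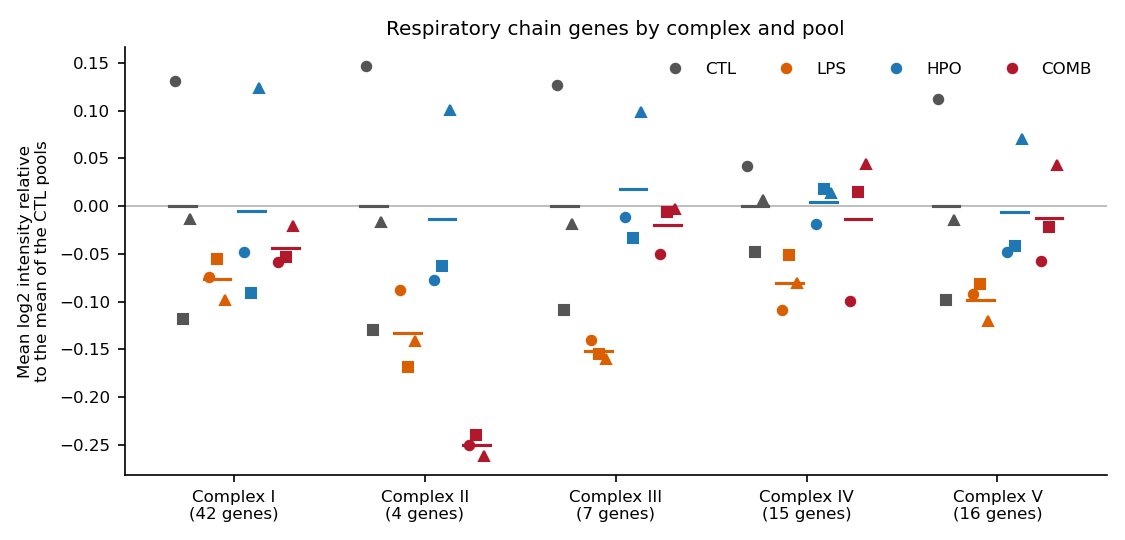
Mean log2 intensity of the genes of each complex in each pool, relative to the mean of the 3 CTL pools (vertical axis, log2 units). Circles, squares and triangles are pools 1, 2 and 3, and bars are group means. The COMB pools of complex II lie at -0.26 to -0.24, below all other pools, whereas in complexes I and V the treated pools lie mostly within the spread of the CTL pools.

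The members spanned the narrowest range in HPO. In HPO against CTL none was called by limma, against 0.035% of probe sets, and 1 had an unadjusted p below 0.05, against 9.71% of probe sets. The t-test of the methods called 0 after adjustment, and 2 of the 84 before it, where it called 8.43% of all genes. The values ran from -0.27 to 0.16 with a median of -0.0007, and 43 of 84 lay below 0. For all 84 genes the 95% interval lay within a 1.5-fold change in either direction, which was so for 81.3% of probe sets. In LPS it did so for 83 of the 84, and in COMB for 78, compared with 77.5% and 66.0% of probe sets.

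In COMB against LPS, which asks what the chamber added to LPS, 1 of the 84 rose and none fell, against 11.9% of probe sets and 13.7% of genes counted once. The member was Cox8a, the common form of a small subunit of complex IV. It read 1890, 1577 and 1671 units in CTL, 1429, 1538 and 1470 in LPS, 1659, 1729 and 1995 in HPO and 1801, 2078 and 1874 in COMB. The LPS pools were the lowest of the 12 and the COMB pools lay around and above CTL. The log2 difference of COMB from LPS was 0.37 (interval 0.14 to 0.60, limma, adjusted p = 0.0388). With each array centred on its median it was 0.29 (limma, adjusted p = 0.0833). The call was also lost in 6 of the 12 fits that left out an array, namely those without CTL pool 3, any LPS pool, COMB pool 2 or COMB pool 3, with adjusted p of up to 0.129. A probe set that names both Atp5mc2 and Atp5mc2l1, and so was not used, also passed the threshold in COMB against LPS. Its log2 difference was 0.42 (limma, adjusted p = 0.0385).

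The sign of the members' median in COMB against LPS depended on the scale, but on both scales it was above that of all genes. Of the 84, 55 lay above 0, with a median of 0.06, but with each array centred on its median the median of the members was -0.02 and 48 lay below 0. The COMB pools were all above the LPS pools for 22 of the 84, or 26.2%, against 15.4% of probe sets and 2510 of the 12853 genes counted once. This comparison and that of LPS with CTL share the LPS pools, in which the members read low.

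In COMB against HPO, which asks what LPS added to the chamber, 2 members fell and none rose, against 15.6% of probe sets and 18.5% of genes counted once. They were Sdhd, given above, and Cox7a2l, a factor of supercomplex assembly related to a subunit of complex IV, at a log2 difference of -0.27 (limma, adjusted p = 0.0473). The call for Cox7a2l was kept in 1 of the 12 fits that left out an array, and was lost in the others with log2 differences of -0.30 to -0.25. A further probe set of Ndufv3, a complex I gene, was also lower in COMB than in HPO, by -0.61 (limma, adjusted p = 0.00976). The probe set used for Ndufv3 was not called, but the gene was called when the probe sets that name a gene were averaged. In the test of the interaction of LPS and the chamber, the difference of COMB from LPS less that of HPO from CTL, no member was called by limma, against 0.136% of probe sets, and 1 had an unadjusted p below 0.05, against 12.3% of probe sets. With array weights in limma 2 were called, along with 9.59% of all genes.

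Fewer members than probe sets at large stood apart in COMB against CTL by the separation of the pools. All COMB pools were below all CTL pools for 10 of the 84 (11.9%), against 21.7% of probe sets, and above them for 3 (3.57%), against 14.9%. The spread of the members was narrow. Their log2 differences had a 5th and 95th percentile of -0.32 and 0.17, compared with -0.60 and 0.87 over all probe sets.

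**Figure D4:**
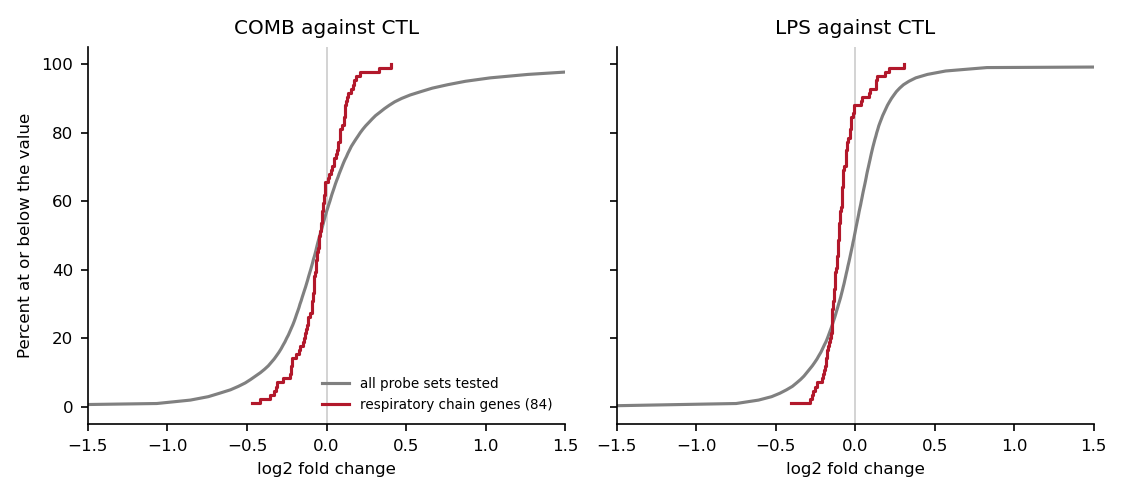
Cumulative distribution of log2 fold changes (horizontal axis, cut at -1.5 and 1.5) for the 84 respiratory chain genes and for all 25692 probe sets tested, in COMB against CTL and in LPS against CTL. The vertical axis gives the percent of genes or probe sets at or below each value. The members lie in a steeper curve than all probe sets in COMB, and left of it around the median in LPS, with medians of -0.04 and -0.10.

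Other mitochondrial genes, in lists kept apart from the members, moved to differing degrees in COMB against CTL. Of 14 genes of mitochondrial fatty acid oxidation, which feeds electrons into the chain, 7 (50%) fell and none rose, where 22% of all genes were called, and all 14 lay below 0 with a median of -0.44. They included Decr1 (-0.70, adjusted p = 0.00431), which handles unsaturated fatty acids, Hadh (-0.68, adjusted p = 0.00800) and Cpt2 (-0.66, adjusted p = 0.0145), the inner carnitine palmitoyltransferase, all by limma. Without CTL pool 1 or COMB pool 3 the call for Cpt2 was lost (limma, adjusted p = 0.0660 and 0.0571). Decr1 and Hadh also passed the threshold in LPS, at -0.65 each (limma, adjusted p = 0.0379 and 0.0494), which is 14.3% of the list against 2.78% of all genes. With an array left out these calls were kept in 5 and 4 of 12 fits, and both were lost without CTL pool 1, CTL pool 3, any LPS pool, HPO pool 1 or HPO pool 2, and that of Hadh also without CTL pool 2 (adjusted p of up to 0.153 and 0.204). The median of the list was -0.32 in LPS and 0.04 in HPO, and 4 to 9 of the 14 were called in COMB when an array was left out.

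Of 37 factors that help assemble the complexes, 1 rose and 6 fell in COMB against CTL, which is 18.9% of them against 22% of all genes. Sdhaf1, which helps insert the iron-sulfur clusters of Sdhb, rose by 0.99 on the log2 scale (limma, adjusted p = 0.000227). It read 523, 550 and 612 units in COMB, 343 to 369 in LPS, 267 to 373 in HPO and 263 to 298 in CTL. The COMB pools were above all others, and the LPS pools were above the CTL pools. Sdhaf4, which acts on the flavoprotein Sdha, fell by 0.66 (limma, adjusted p = 0.00247). Sdhaf2, which also acts on Sdha and was named after its values were seen, fell by 0.47 (limma, adjusted p = 0.0113), a call lost without CTL pool 3 (adjusted p = 0.0558). Nubpl, an iron-sulfur factor of complex I, and Cox10, an enzyme of the haem of complex IV, fell by 0.74 and 0.56 (limma, adjusted p = 0.00126 and 0.00229).

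Of 16 genes of mitochondrial biogenesis and transcription, 1 rose and 2 fell in COMB, which is 18.8% against 22% of all genes. Gabpa, the DNA-binding subunit of the GABP factor that recognises the ETS core, fell by 1.04 (limma, adjusted p = 0.000301). It read 127, 135 and 136 units in COMB against 253, 256 and 312 in CTL, with the LPS and HPO pools at 206 to 318. Gabpb1, its partner subunit, rose by 0.76 (limma, adjusted p = 0.00101), from 194 to 225 units in CTL to 312 to 375 in COMB. Ppargc1b, a coactivator of oxidative genes, fell by 0.73 (limma, adjusted p = 0.00339). These counts were the same, 3 of 16, in each fit that left out an array.

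Among 16 genes of cytochrome c, ubiquinone synthesis and electron transfer flavoprotein, Coq8b rose (0.50) and Etfb (-0.72) and Coq3 (-0.57) fell, which is 18.8% called. Of 14 genes of the tricarboxylic acid cycle and pyruvate dehydrogenase, Ogdh rose (0.36) and Suclg2 (-0.49) and Pdhx (-0.42) fell, which is 21.4% against 22% of all genes. The call for Ogdh was kept only without HPO pool 1, HPO pool 3 or COMB pool 2, and was lost without any other single array (adjusted p of up to 0.134). That for Pdhx was lost without CTL pool 1, CTL pool 3, COMB pool 2 or COMB pool 3 (adjusted p of up to 0.0923). Of 25 genes of protein import and folding in the mitochondrion, 4 rose, led by Tomm6 (0.54), Timm10 (0.48) and Hspa9 (0.48), and none fell, which is 16% called. The call for Hspa9 was lost without CTL pool 2, CTL pool 3, COMB pool 1 or COMB pool 3 (adjusted p of up to 0.0723). Of 73 proteins of the mitochondrial ribosome, 4 rose and 1 fell, or 6.85%. Mrps6 had the largest change, 1.49 in COMB (limma, adjusted p = 0.000162) and 1.07 in LPS (limma, adjusted p = 0.0120), while Mrps15 fell by 0.46 in COMB. Mrps6 in LPS was not called without CTL pool 1, CTL pool 3 or LPS pool 1 (adjusted p of up to 0.0741), nor Mrps15 in COMB without CTL pool 1, CTL pool 3 or COMB pool 3 (adjusted p of up to 0.0773).

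A list of 10 genes linked to hypoxia and mitochondria also held transcription regulators, such as Hif1a and Mxi1. By limma none of the 10 was called in COMB or HPO against CTL, where 22% and 0.0311% of all genes were. In each, 2 had an unadjusted p below 0.05, against 35.7% and 8.78% of all genes. The t-test of the methods called 0 after adjustment in each comparison and 1 before it, where it called 28.7% and 8.43% of all genes. In COMB against CTL 2 were called without CTL pool 2 and 1 without COMB pool 1, where 19.7% and 21.9% of all genes were. In COMB against HPO 3 of the 10 (30%) were called, where 18.5% of all genes were. Hif1a, the oxygen-regulated subunit of hypoxia-inducible factor, rose by 0.69, and Mxi1 and Bnip3, a mitophagy receptor, fell by 0.45 and 0.43 (limma, adjusted p = 0.00789, 0.0389 and 0.0144).

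Of the genes linked to inflammation 2 were measured. Sod2, the manganese superoxide dismutase of the matrix, is known to be induced in inflammation, and it rose by 1.49 in COMB and 1.26 in LPS (limma, adjusted p = 8.84e-06 and 0.000243). Ucp2, an inner membrane carrier, had log2 differences of -0.38 in COMB and -0.42 in LPS that did not pass the threshold (limma, adjusted p = 0.0528 and 0.124).

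**Figure D5:**
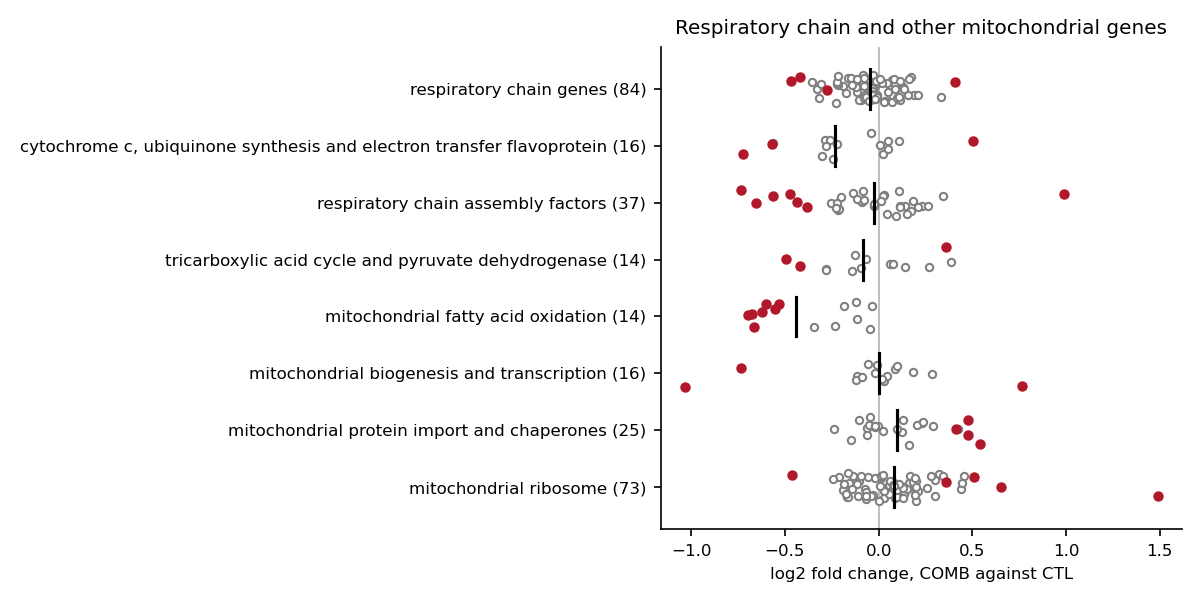
Log2 fold change of COMB against CTL (horizontal axis) for the 84 respiratory chain genes and for each list of other mitochondrial genes, with the number measured in parentheses. Each point is a gene, filled where the adjusted p was below 0.05, and vertical bars are medians. The respiratory chain genes lie within -0.47 to 0.41, and the fatty acid oxidation genes have a median of -0.44.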

How the data were processed

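RNA from BALF cells was hybridised to 12 Affymetrix Rat Genome 230 2.0 arrays, 3 pools of rats in each of 4 groups. The deposited values were linear intensity values for 31099 probe sets, made by the authors. How probes were summarised and normalised is not given in the sources used here. The table still held probe sets below the 20th percentile, on which the methods filter. Genes were named from the platform annotation: 20832 probe sets named 1 gene, 436 several and 9831 none. All 84 members matched a gene in the RefSeq table of GRCr8 without a change of symbol. Control probe sets (57) were left out.

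Values were taken as log2(intensity + 1), and probe sets above the 20th percentile of the array in at least 3 arrays were kept (25692). A linear model over the 4 groups was fitted with limma 3.58.1 in R 4.3.3 (lmFit and eBayes, no covariates, 8 residual and 3.94 prior degrees of freedom), and p-values were adjusted by Benjamini-Hochberg over all probe sets tested. Calls are at an adjusted p below 0.05. Fold changes on this scale understate those of dim probe sets. The fit was tested on simulated data. The number of arrays limits the precision, and the p-values measure the spread between pools.

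The members, the lists of other genes and the markers were chosen with earlier results of these data known. Values in every array are given for called members with the largest changes in each complex, for all genes of complex II, and for tissue-restricted isoforms and their common counterparts. Members called only in COMB against HPO are given by fold change, and up to 3 called genes each way are given from each other list, except where a gene is said to be chosen after its values were seen. Promoter motifs were searched in RefSeq sequences on both strands. Alternatives were quantile normalization, centring each array on its median, a pseudocount of 16, no filter, a filter at the 50th percentile, a trended and robust prior, array weights, a fit of only the groups compared, averaging the probe sets that name a gene, the Student t-test of the methods, their 2-fold threshold, leaving out each array and a replicate block. A count without the Ndufaf genes, Cox6c-ps1 and Atp5if1 was added after seeing the data. Figures were drawn with matplotlib.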

Additional observations from a re-analysis of the deposited data

How the results depend on the processing

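Sdhd stayed called in COMB against CTL under each alternative tried except the 2-fold threshold and the adjusted Student t-test of the methods (adjusted p = 0.0654), and in COMB against HPO under each except that threshold, that test (adjusted p = 0.0919) and the fit of only the groups compared (adjusted p = 0.0659). The counts of called members were less stable, and the causes were not tested beyond what each alternative changes. The number called in COMB against CTL (4 as reported) was 7 after quantile normalization, 9 with each array centred on its median, 7 with a pseudocount of 16, 12 with array weights, 1 in the fit of only the groups compared, 1 (Ndufb1) by the adjusted t-test, 11 by the unadjusted t-test and 0 by the 2-fold threshold. In LPS against CTL (0) it was 1 with the pseudocount of 16, 1 with a trended and robust prior, 5 with array weights and 12 by the unadjusted t-test. In HPO against CTL (0) it was 3 with array weights and 2 by the unadjusted t-test, and in the interaction (0) it was 2 with array weights. In COMB against LPS (1) it was 4 after quantile normalization, 5 with the pseudocount of 16, 2 with the filter at the 50th percentile, 5 with the trended and robust prior, 9 with array weights, 24 by the unadjusted t-test, and 0 in the fit of only the groups compared, by the adjusted t-test and by the 2-fold threshold. In COMB against HPO (2) it was 5 after quantile normalization, 6 with the pseudocount of 16, 4 with the filter at the 50th percentile, 6 with the trended and robust prior, 9 with array weights, 7 by the unadjusted t-test, and 0 in the fit of only the groups compared, by the adjusted t-test and by the 2-fold threshold. The share of all genes called moved as well. In COMB against CTL it was 22% as reported, 26.1% after quantile normalization, 24.9% with each array centred, 23.1% with the pseudocount of 16, 31.7% with array weights, 15.5% in the fit of only the groups compared, and 2.64% and 28.7% by the adjusted and unadjusted t-test. With array weights it was 17.7% in LPS, 13% in HPO, 20.5% in COMB against LPS, 29.9% in COMB against HPO and 9.59% in the interaction, and the unadjusted t-test called 20.9%, 8.43%, 25.1% and 21.4% in the first 4 of these. The median of the members in COMB against LPS turned from 0.06 to -0.02 (-0.0202) with each array centred on its median. That of all genes moved from 0.0048 to -0.0754.

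With an array left out, the number called ran from 1 to 7 in COMB against CTL, from 0 to 6 in COMB against LPS and from 1 to 3 in COMB against HPO, and was 0 in each such fit of the other comparisons. In COMB against CTL it was 2 without CTL pool 1, CTL pool 3 or COMB pool 3, 1 without COMB pool 2 and 7 without HPO pool 3. In COMB against LPS it was 0 without CTL pool 3, any LPS pool or COMB pool 2, 4 without COMB pool 1 and 6 without HPO pool 3. In COMB against HPO it was 2 without CTL pool 2, 3 without COMB pool 1 and 1 without any other single array. The median of the members ran from -0.10 to 0.03 in COMB against CTL, with the value above 0 reached without CTL pool 1, and from -0.15 to -0.04 in LPS against CTL. With the Ndufaf genes, Cox6c-ps1 and Atp5if1 left out, the number called was the same in every comparison. Cox7a2l was still counted there. Array weights ranged from 0.226 for HPO pool 3 to 6.39 for HPO pool 1.

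The same rat numbers recur in the titles of CTL and LPS pools, and a fit with pools matched on them as a replicate block gave 0 members called in LPS against CTL and a median of -0.10, as without the block. Deviations of the matched pools from their group means correlated at -0.0076 to 0.039. Only the pools of rats 8, 9 and 10 share all their numbers, so these correlations cannot test pairing. The paper describes a random division of rats into groups, and the numbers were not taken as pairs.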
